A study of Homo sapiens with 4 samples.

Results

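Histone deacetylases remove acetyl groups from histone tails and other proteins. The 17 array probes of 10 genes of this system were followed in TOV112D ovarian cancer cells, out of 28264 probes in the table (10 of 19090 genes with a name). They were taken as every probe whose platform gene symbol was HDAC1, HDAC2 or HDAC3 (class I), HDAC4, HDAC5, HDAC7 or HDAC9 (class IIa), or MEF2A, MEF2C or MEF2D, the MEF2 factors that class IIa enzymes repress. The genes were picked from earlier results for their differences between HOXD10-transfected and control cells on these same arrays, so every difference between the groups given for them is a description and carries no test.

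TOV112D is an established cell line from an epithelial ovarian cancer. The HD group is cells transfected with the HOXD10-pCDNA plasmid and labelled as HOXD10 overexpression, and the ND group is the control, called mock-transfected in the methods, whereas the legends give it the control plasmid. Each group had 2 Cy5 single-colour arrays. Separate transfections are not mentioned in any source, so p-values reflect how far these arrays vary among themselves, and that variation may be technical. Not every cell took up plasmid, according to the methods, and less RNA per cell cannot be told apart from fewer cells that make it.

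Class I deacetylases are the catalytic subunits of nuclear corepressor complexes such as NuRD, SIN3, CoREST and NCoR/SMRT. Class IIa enzymes have weak activity of their own, carry a long N-terminal region that binds MEF2 factors, and leave the nucleus with 14-3-3 proteins once kinases phosphorylate them. MEF2 factors are MADS-box activators of muscle, neuronal and vascular genes, which a bound class IIa enzyme turns into repressors. In muscle cells of mice, HDAC9 is itself a target of MEF2 factors.

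The genes lie on different chromosomes except for 2 pairs, HDAC1 and MEF2D on chromosome 1 and HDAC3 and MEF2C on chromosome 5. HDAC9, on chromosome 7 from 18086825 to 19002416 (GRCh38.p14, RefSeq), is the longest at 915.6 kb, followed by HDAC4 at 353.5 kb, MEF2C at 187 kb and MEF2A at 151.1 kb, and the other 6 genes span 16 to 46.9 kb. RefSeq promoter windows, 250 bases before to 50 after a transcription start, matched 9 of the 10 genes, all but HDAC5. In these 25 windows, some of which overlap, the MEF2 consensus site, 10 bases long, was searched. Its pattern reads the same on both strands. It was found in 3 windows, at starts of MEF2A, MEF2C and HDAC9, and these windows are shown here because they hold the site. Each was 1 of several starts of its gene, of which HDAC9 has 5, MEF2C 7 and MEF2A 3. These genes also held the probes with the widest differences between the groups, and a link between site and difference was not tested. The capitals mark the site, and the windows are given 5′ to 3′ on the strand of the gene.
HDAC9, chr7:18086575-18086874, plus strand: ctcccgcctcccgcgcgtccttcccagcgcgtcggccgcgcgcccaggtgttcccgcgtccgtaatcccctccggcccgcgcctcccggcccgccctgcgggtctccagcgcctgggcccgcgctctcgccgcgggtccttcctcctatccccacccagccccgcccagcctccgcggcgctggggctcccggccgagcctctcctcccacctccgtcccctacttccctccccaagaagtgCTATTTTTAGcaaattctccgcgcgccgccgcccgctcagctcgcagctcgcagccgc
MEF2A, chr15:99565734-99566033, plus strand: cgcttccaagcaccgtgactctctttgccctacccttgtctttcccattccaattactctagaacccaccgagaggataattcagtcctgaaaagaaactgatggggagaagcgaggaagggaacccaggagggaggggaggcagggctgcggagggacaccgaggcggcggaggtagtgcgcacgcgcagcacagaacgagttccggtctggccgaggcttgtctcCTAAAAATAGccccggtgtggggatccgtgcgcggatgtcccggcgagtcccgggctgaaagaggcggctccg
MEF2C, chr5:88824295-88824594, minus strand: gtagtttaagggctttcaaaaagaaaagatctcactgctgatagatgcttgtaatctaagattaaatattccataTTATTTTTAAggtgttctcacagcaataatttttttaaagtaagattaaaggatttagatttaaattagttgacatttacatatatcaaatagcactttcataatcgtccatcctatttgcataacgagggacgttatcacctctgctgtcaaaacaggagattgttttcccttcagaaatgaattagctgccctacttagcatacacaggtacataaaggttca
The site began 8 bases before the start in HDAC9, 23 bases before it in MEF2A and 175 bases before it in MEF2C. Of all 35116 promoter windows, 2.99% held such a site, and of 27305 genes with a window 3.67% had a site in at least 1. The 9 genes here had 25 windows, more per gene than genes at large, so the share of genes is no like comparison. A match is a stretch of letters and does not show that a factor binds there, and which start is used in these cells was not measured.

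Values were normalized intensities as deposited, on a linear scale whose lowest value is 50. The median was 361 on every array, and 4414 to 5579 probes per array were at the lowest value. None of the 17 probes was at the lowest value on any array, and they ran from 158 to 33924. The probe for HOXD10 was at 50 on all 4 arrays, and whether it falls within the plasmid insert was not stated, so it checks nothing. The study itself reports, by qPCR and western blot, that the plasmid raised HOXD10 mRNA and protein in TOV112D cells. Whether those assays used the RNA of these arrays is not stated. Of 5 epithelial markers 2 rose and 1 fell. CDH1 was at the lowest value on all arrays and EPCAM read 378 and 360 on the ND and 1767 and 1469 on the HD arrays. KRT8 rose from the lowest value to 99.4 and 103, and KRT19 fell from 665 and 737 to 345 and 297. KRT18 read 254 and 278 against 447 and 334 and did not pass. The 5 epithelial markers summed to 1397 to 1476 on the ND and 2253 to 2709 on the HD arrays, where most of the sum was EPCAM. The 4 fibroblast markers summed to 23810 to 24924 on the ND and 38393 to 45518 on the HD arrays. All 4 had higher means in HD cells, though 0 passed (1, LUM, at an unadjusted p under 0.05 from limma). LUM read 13461 and 13744 on the ND and 33247 and 26472 on the HD arrays, and it made up most of the difference between the sums. The log2 fold changes of COL1A1, PDGFRB and DCN were 0.24, 0.24 and 0.02, with overlapping groups for DCN. The 4 Müllerian markers summed to 238 to 278 on the ND and 200 to 213 on the HD arrays, with MUC16 at the lowest value throughout. PAX8 read 128 and 56.4 on the ND arrays and 50 on both HD arrays. A probe at the lowest value does not show that its gene is silent. The 4 leukocyte markers summed to 1151 to 1301 on the ND and 1076 to 1247 on the HD arrays (1 rose), and the 3 endothelial markers to 660 to 851 and 490 to 538 (0 passed in limma, and 0 at an unadjusted p under 0.05). The part of these markers in the results was not tested.

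The differences ran both ways and were widest for HDAC9, MEF2C and MEF2A, taking each gene by its probe with the largest change. Of the 17 probes, 8 had a log2 fold change above 0 (HD minus ND) and 9 below 0, with a median of -0.08 against -0.02 over all probes. HD and ND values did not overlap for 13 probes, 6 with HD above and 7 with HD below ND, while 24.9% of all probes had HD above and 34.8% HD below ND, 59.7% in all. In 11 of the 13, the gap between the groups was wider than the larger of the ranges within a group. At an adjusted p under 0.05 from limma, 1 probe was counted as higher and 4 as lower, where 13.8% of all probes met this limit (6.65% higher and 7.19% lower). The study's criteria were an unadjusted p under 0.05 together with a change of 2-fold or more. They counted 2 probes as higher and 3 as lower, where 12.4% of all probes met them (6.11% higher and 6.27% lower). These counts use the values that led to the choice of genes, so nothing is read from their size. With quantile, cyclic loess and 75th percentile scaling, 3, 5 and 5 probes were higher and 4, 4 and 5 lower at the same adjusted p, where the share of all probes was 21.4%, 31.5% and 33.5%. With any of the 4 arrays left out 0 passed (7 to 9 at an unadjusted p under 0.05).

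**Figure D1:**
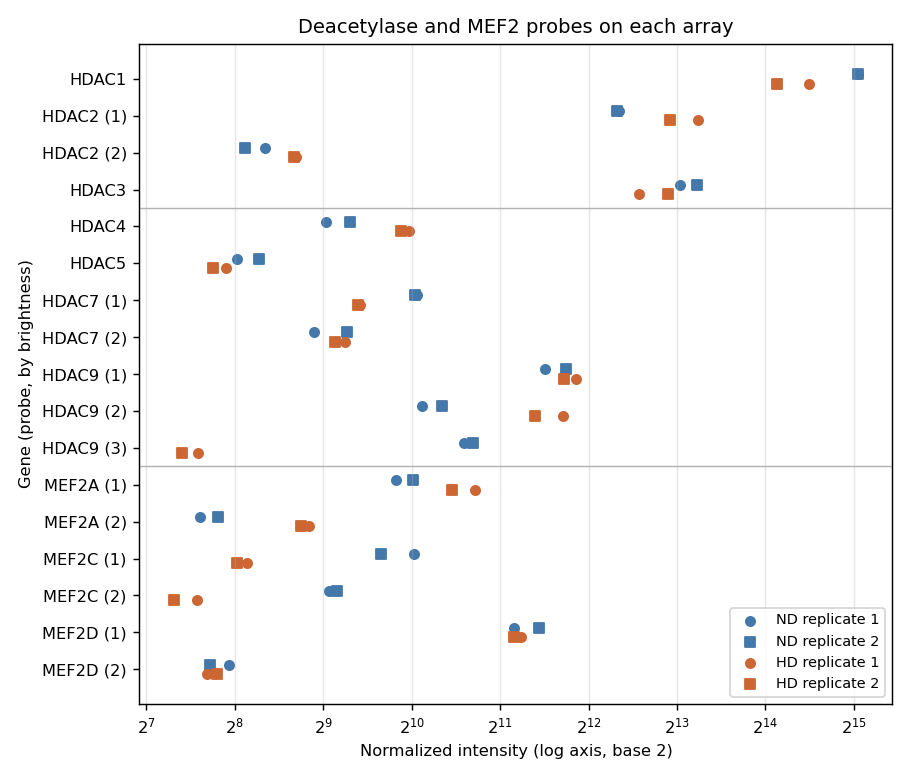
Normalized intensity on a log axis (base 2) of the 17 probes on each of the 4 arrays, blue for ND and orange for HD, circles for replicate 1 and squares for replicate 2, with probes of a gene numbered from the brightest. The groups stand apart for 13 probes and overlap for the second probe of HDAC7, the first of HDAC9 and both of MEF2D.

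HDAC9, a class IIa enzyme also known in a short form without the catalytic domain, had 3 probes that did not share a direction. On the dimmest of them, PH_hs_0044617, the ND arrays read 1544 and 1653 and the HD arrays 191 and 170. This is a mean of 1598 ± 77.2 against 180 ± 15.3 (SD, n = 2), 8.87-fold lower in HD cells, with a difference of -3.15 on the log2 scale (standard error 0.0896). The gap between the groups, 3.01 on the log2 scale, was many times the range within either of them, and the probe lay at percentile 0.131 of all probes of like brightness. PH_hs_0045029 went the other way, with 1108 and 1301 on the ND and 3340 and 2686 on the HD arrays. Its log2 fold change was 1.32 (standard error 0.174), and the lower HD array was still above the higher ND array. The brightest probe, PH_hs_0006398, read 2919 and 3426 on the ND and 3718 and 3380 on the HD arrays, so that the groups overlapped, with a difference of 0.16 on the log2 scale (standard error 0.12). The platform annotation names the gene but not the transcript that each probe reads, and RefSeq lists 40 transcripts of HDAC9. A direction for the gene as a whole is therefore not given. Leaving out each array in turn, the log2 fold changes of the dimmest, second and brightest probe stayed within -3.24 to -3.06, 1.16 to 1.48 and 0.05 to 0.28.

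The probes most like PH_hs_0044617 belonged to other genes with values far lower in HD cells. By the root mean square distance of log2 values centred per probe, over the 4 arrays, the nearest was a probe of CCL2, a chemokine, at 0.0567. It read 1005 and 1156 on the ND and 122 and 118 on the HD arrays. CPVL, a carboxypeptidase, followed at 0.0998 and S100A4, a calcium-binding protein, at 0.107, with log2 fold changes of -3.02 and -2.96. With 4 arrays in 2 groups this likeness is hardly more than a like size of difference.

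MEF2C, the factor known for heart, muscle and neural crest development, was lower in HD cells by either probe. The brighter, PH_hs_0024090, gave 1041 and 806 on the ND and 281 and 259 on the HD arrays, a log2 fold change of -1.76 (standard error 0.172). The dimmer, PH_hs_0047448, gave 535 and 571 against 190 and 158, a log2 fold change of -1.67 (standard error 0.125). Every HD value lay below every ND value of the same probe, 3.39-fold and 3.18-fold lower on average.

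MEF2A, a widely expressed factor of the same family, was higher in HD cells on both probes. PH_hs_0025001 read 195 and 225 on the ND and 459 and 428 on the HD arrays, 2.12-fold higher, with a difference of 1.08 on the log2 scale (standard error 0.101). The brighter PH_hs_0049257 read 908 and 1031 against 1683 and 1399, 1.59-fold higher, with a difference of 0.67 on the log2 scale (standard error 0.144). The groups did not overlap on either probe. Without ND replicate 1, neither PH_hs_0025001 nor the HDAC9 probe PH_hs_0045029 met the study's criteria any longer, the former at a log2 fold change of 0.98, and 3 member probes were left, all lower.

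MEF2D, also widely expressed, differed by less than the range within ND on either probe. Its brighter probe, PH_hs_0048579, gave 2288 and 2776 on the ND and 2406 and 2292 on the HD arrays, and the dimmer, PH_hs_0004501, gave 244 and 211 against 206 and 223. The log2 fold changes were -0.10 (standard error 0.128) and -0.08 (standard error 0.108), and they came to 0.04 without ND replicate 2 and to 0.02 without ND replicate 1. The MEF2 factors thus held 1 gene higher on all its probes, 1 gene lower on all its probes and 1 gene whose groups overlapped.

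**Figure D2:**
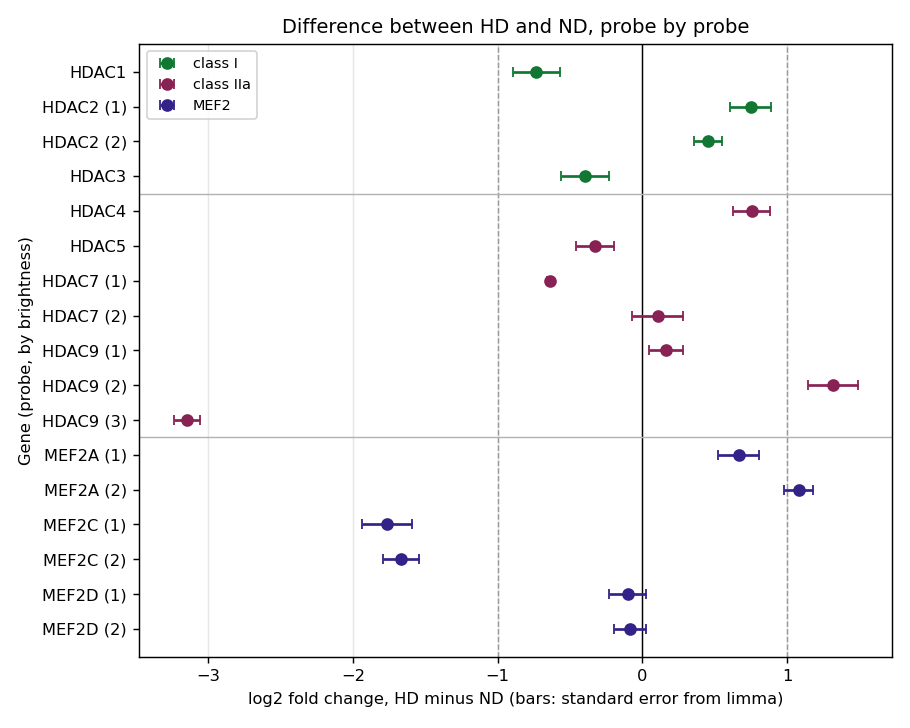
Log2 fold change, HD minus ND, of each probe (points) with its standard error from limma (bars), ordered by class, with dashed lines at -1 and 1. The HDAC9 probes run from -3.15 to 1.32, both MEF2C probes lie below -1.6 and both MEF2A probes above 0.6.

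The other class IIa enzymes differed less than the 2 HDAC9 probes with the largest changes. HDAC4, known in mice for restraining the growth of cartilage cells, read 523 and 632 on the ND and 1003 and 943 on the HD arrays, 1.69-fold higher (log2 fold change 0.76, standard error 0.128). HDAC5, its close relative, read 261 and 310 against 239 and 215, with a difference of -0.33 on the log2 scale (standard error 0.128) and a gap between the groups smaller than the range within ND. HDAC7, known from endothelial cells and thymocytes, had 2 probes that differed. PH_hs_0061323 read 1064 and 1049 on the ND and 683 and 672 on the HD arrays, a log2 fold change of -0.64 whose standard error of 0.0196 was the smallest among the 17 probes. PH_hs_0043664 read 477 and 617 against 609 and 560, with overlapping groups. Its log2 fold change was 0.11 (standard error 0.173), or -0.08 without ND replicate 1. Like HDAC9, HDAC7 therefore has no direction that its probes share.

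Among the class I enzymes, HDAC2 was higher and HDAC1 lower in HD cells, and these differences depended in part on scaling. HDAC1 had the highest intensities of the 17 probes, 33924 and 33759 on the ND and 23143 and 17943 on the HD arrays, a log2 fold change of -0.73 (standard error 0.163). Probes of like brightness, with mean log2 intensities from 14 to 15, had a median of -0.59, and the value for HDAC1 became -0.18 with quantile and -0.16 with cyclic loess normalization. HDAC3, the enzyme of NCoR/SMRT, read 8411 and 9548 against 6098 and 7638, a log2 fold change of -0.39 (standard error 0.166) that came to -0.16 and -0.08 after these normalizations. HDAC2, the close homologue of HDAC1, read 5212 and 5110 on the ND and 9676 and 7772 on the HD arrays with its brighter probe, 1.68-fold higher (log2 fold change 0.75, standard error 0.141). Its dimmer probe read 323 and 277 against 412 and 408, a log2 fold change of 0.45 (standard error 0.100). The groups did not overlap on either probe of HDAC2, and the brighter came to 0.95 and 1.03 after quantile and cyclic loess normalization.

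**Figure D3:**
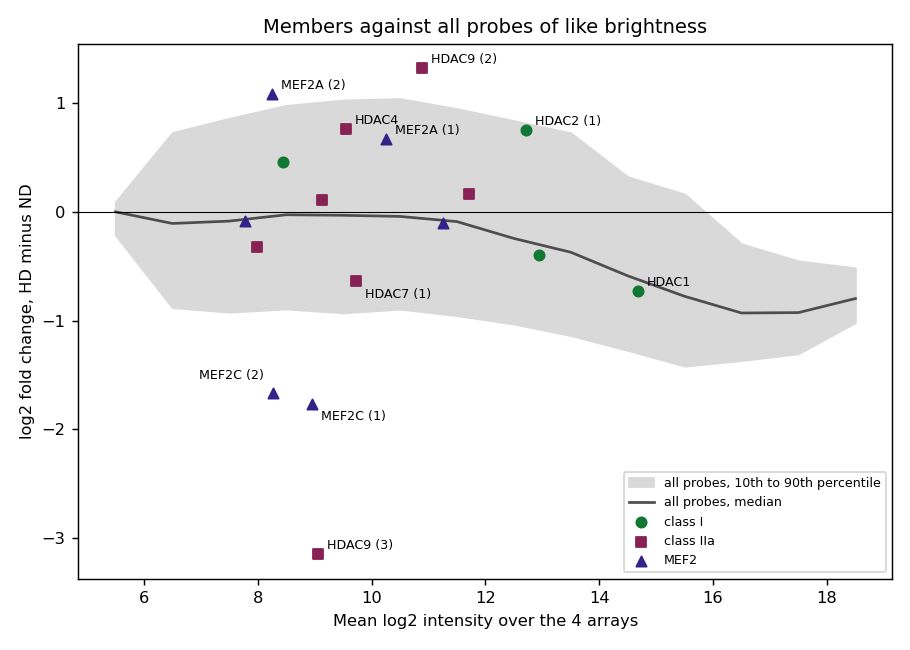
Log2 fold change, HD minus ND, against mean log2 intensity over the 4 arrays, for the 17 probes (symbols by class) and for all probes in bins of 1 log2 unit (line, median; grey, 10th to 90th percentile; bins under 20 probes not drawn). HDAC1 lies close to the falling median of bright probes, while both MEF2C probes and the HDAC9 probe at -3.15 lie far below the grey range.

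**Figure D4:**
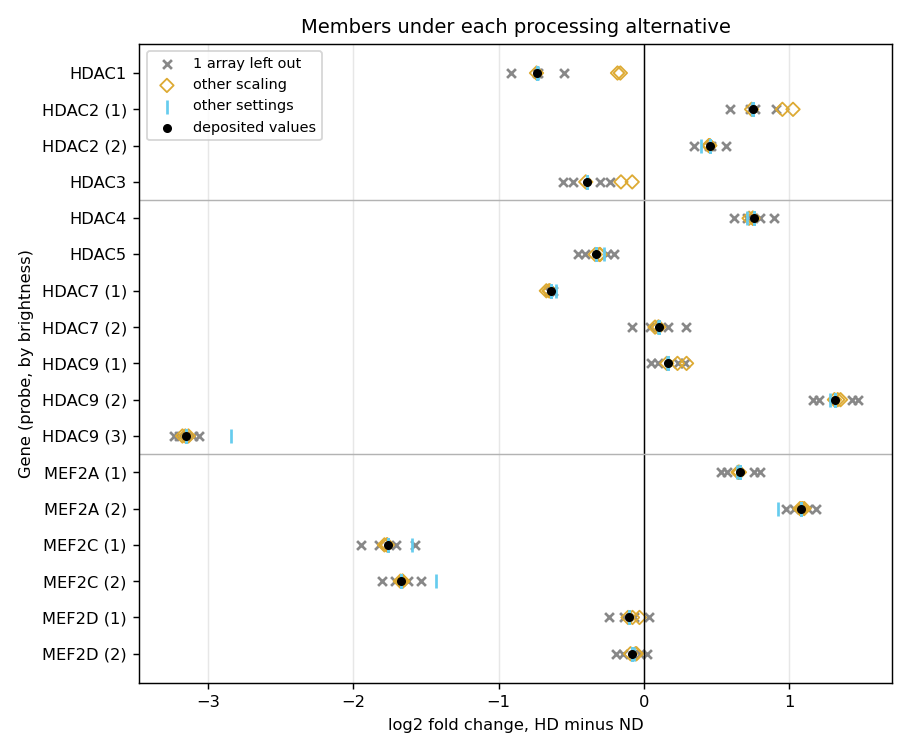
Log2 fold change, HD minus ND, of each probe with the deposited values (black) and under the alternatives tried (diamonds, other scaling; crosses, 1 array left out; ticks, other settings). HDAC1 and HDAC3 move towards 0 with other scaling, and the second probe of HDAC7 and both of MEF2D cross 0.

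The genes that work with these factors passed at a share close to that of all genes with the deposited values. Of 92 partner genes with a named probe, each taken by its brightest probe, 7 rose and 7 fell by limma (adjusted p under 0.05), which is 15.2%, where 14.6% of all 19090 genes passed (6.67% rose and 7.97% fell). Their median log2 fold change was -0.06, against -0.05 over all genes. After quantile normalization 16 rose and 10 fell, which is 28.3% against 23.3% of all genes, and after cyclic loess normalization 23 rose and 15 fell, which is 41.3% against 33.4%. With 75th percentile scaling 18 rose and 20 fell, which is 41.3% against 35.8%. Of all genes, 12.5% rose and 10.7% fell after quantile and 18.5% and 14.9% after cyclic loess normalization. With 75th percentile scaling these were 15.3% and 20.5%, and the list counts below stand against these shares. For 7 genes the brightest probe did not pass but a dimmer one did, and these are given with their lists. With any array left out, 0 partner genes passed in limma, as for all probes of the table, and 27 to 31 had an unadjusted p under 0.05.

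Of the other zinc-dependent deacetylases and MEF2B, each by its brightest probe, 0 of 5 passed in limma (3 were lower at an unadjusted p under 0.05). All 5 had log2 fold changes below 0, with a median of -0.66, and 4 of 5 after quantile or cyclic loess normalization. With 75th percentile scaling 3 of the 5 fell, and with cyclic loess normalization 2 fell, where 20.5% and 14.9% of all genes fell. HDAC10, a polyamine deacetylase, had the smallest adjusted p, 0.0617 from limma, with 1054 and 973 on the ND and 602 and 493 on the HD arrays. HDAC8, a class I enzyme that acts on cohesin, had 5 probes with log2 fold changes from -0.86 to 0.61, of which 0 passed, so that probes of a gene disagreed here too.

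Of 11 NuRD genes, 3 fell and 0 rose (1 was higher at an unadjusted p under 0.05), with a median of -0.16 (0.08 with quantile and 0.14 with cyclic loess normalization). The count depended on scaling, with 1 rise and 1 fall after quantile and 3 rises and 2 falls after cyclic loess normalization. With 75th percentile scaling there were 1 rise and 3 falls. Dimmer probes of the remodellers CHD4 and CHD3 rose by 1.99 and fell by 0.72 (adjusted p = 0.0440 and 0.0286 from limma), while their brightest probes were at 0.17 and -0.05. MTA2, a scaffold subunit, fell from 4568 and 5121 to 2267 and 2203 (log2 fold change -1.11, standard error 0.0766, adjusted p = 0.0364 from limma). The p66 subunits GATAD2A and GATAD2B had log2 fold changes of -0.53 and -0.51 (adjusted p = 0.0357 and 0.0485 from limma). They passed with 1 and 2 of the 3 other scalings. Their second probes did not pass, and that of GATAD2B was at 0.17. Of 11 SIN3 genes 1 rose and 2 fell with each of the 3 other scalings, and with the deposited values only SAP30 passed. It fell from 2792 and 3304 to 1583 and 1468 (adjusted p = 0.0488 from limma), while the median of the list was -0.06, and 0.13 and 0.14 after quantile and cyclic loess normalization.

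CoREST and NCoR/SMRT held genes of both directions. RCOR1, the scaffold of CoREST, rose from 5403 and 6580 to 13338 and 12945 (log2 fold change 1.14, adjusted p = 0.0466 from limma), while its paralogue RCOR2 fell from 11927 and 13791 to 6607 and 6061 (log2 fold change -1.02, adjusted p = 0.0451 from limma). ZMYM2, a zinc finger partner of the complex, rose by 0.97 (adjusted p = 0.0365 from limma). A second probe of RCOR1 and of ZMYM2 was at the lowest value throughout. These were 2 rises and 1 fall among 8 genes, with a median of 0.38. After quantile normalization 3 rose and 1 fell, and with cyclic loess normalization or 75th percentile scaling 4 rose and 1 fell. A dimmer probe of ZMYM3 fell by 1.07 (adjusted p = 0.0451 from limma). Of 4 measured NCoR/SMRT genes, TBL1XR1, a beta-propeller subunit, rose on both of its probes, by 1.19 and 1.21 on the log2 scale (adjusted p = 0.0379 and 0.0336 from limma). GPS2, an inhibitory subunit with bright values, fell from 35814 and 36472 to 20574 and 17584, a log2 fold change of -0.93 that was as small as -0.36 under other scaling and passed with 1 of the 3 other scalings. MiDAC, a mitotic deacetylase complex, had 3 measured genes and 0 passed in limma (1 was higher and 1 lower at an unadjusted p under 0.05). TRERF1 had the smallest adjusted p, 0.0882.

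**Figure D5:**
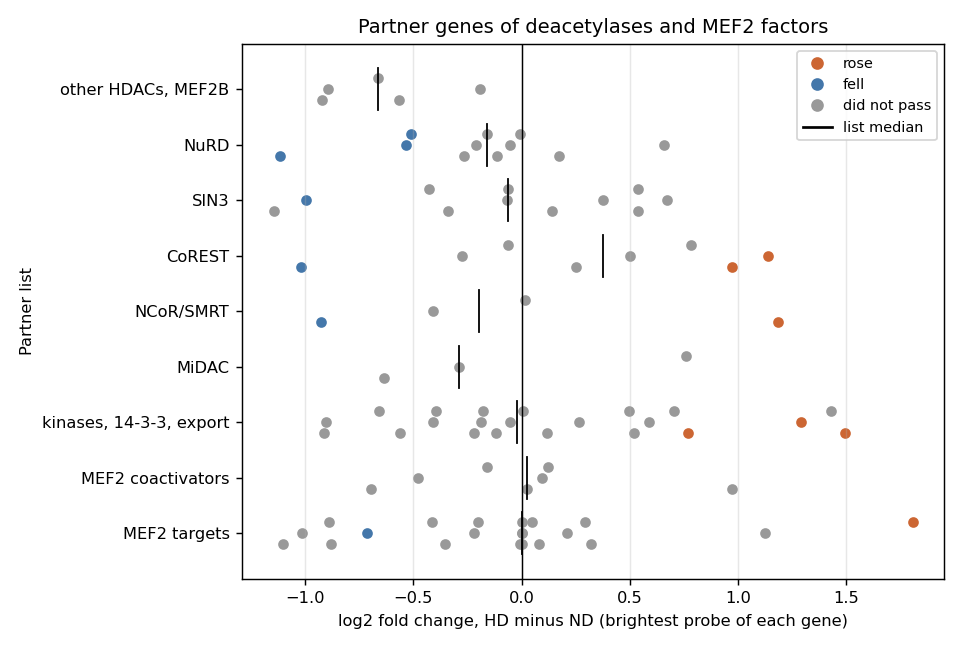
Log2 fold change, HD minus ND, of the brightest probe of each partner gene (points) by list, orange where the gene rose, blue where it fell and grey where neither held at limma's adjusted p under 0.05, with the median of each list as a line. The 7 rises and 7 falls are spread over 6 of the 9 lists.

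Among 22 kinases, 14-3-3 proteins and the exporter that move class IIa enzymes out of the nucleus, 3 rose and 0 fell (3 were lower at an unadjusted p under 0.05), with a median of -0.02 (0.29 with quantile and 0.34 with cyclic loess normalization). There were 7 rises and 0 falls after quantile normalization, 9 and 1 after cyclic loess normalization and 7 and 2 with 75th percentile scaling. In the same order, 12.5%, 18.5% and 15.3% of all genes rose and 10.7%, 14.9% and 20.5% fell. XPO1, the nuclear export receptor, rose from 5975 and 7293 to 19301 and 17878 (log2 fold change 1.49, standard error 0.137, adjusted p = 0.0418 from limma). YWHAZ, a 14-3-3 protein, rose from 29389 and 36348 to 83578 and 76371 on its brighter probe (adjusted p = 0.0473 from limma), and its dimmer probe was at 0.75 and did not pass (adjusted p = 0.0955). CAMK4, a calcium-dependent kinase, rose from 83.9 and 82.8 to 143 and 142 (adjusted p = 0.0237 from limma), close to the lowest value. Dimmer probes of the kinases MARK3 and CAMK1 rose by 1.30 and fell by 0.89 (adjusted p = 0.0430 and 0.0480 from limma). The list named MEF2 coactivators held 7 measured genes, EP300, CREBBP, KAT2B, MAPK11, MAPK7, CABIN1 and NCOA2, and not all of them are coactivators. Of these 7 genes 0 passed in limma (1 was higher and 1 lower at an unadjusted p under 0.05). KAT2B, an acetyltransferase, had the smallest adjusted p, 0.0661 from limma.

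Of 21 genes described as MEF2 targets, mostly in muscle, neurons and vessels of mice, 1 rose, 1 fell and 19 did not pass. Log2 fold changes were above 0 for 7, below 0 for 10, and 0 for the 4 at the lowest value on all arrays. The median of 0.00 is the value of these 4, so it does not place the other targets at no change. It was 0.03 after cyclic loess normalization and -0.01 after 75th percentile scaling. With quantile normalization 2 rose and 4 fell, and with cyclic loess normalization or 75th percentile scaling 2 rose and 5 fell. Dimmer probes of IRS1, an insulin signalling adaptor, and NR4A2, an orphan nuclear receptor, rose by 1.77 and fell by 2.64 (adjusted p = 0.0374 and 0.0256 from limma). KLF6, a zinc finger transcription factor, rose from 2318 and 2559 to 8258 and 8782 on its brightest probe (log2 fold change 1.81, standard error 0.0757, adjusted p = 0.0302 from limma). It rose by 2.01 and 1.83 on another 2 probes, while the dimmest fell by 0.45 (adjusted p = 0.0458). CKM, the muscle creatine kinase, read 83.9 and 80.3 on the ND arrays and 50 on both HD arrays, at least 1.64-fold lower in HD cells (adjusted p = 0.0307 from limma). KLF4, DES, MYH7 and XIRP1 were at the lowest value on all 4 arrays. Of the 4 muscle markers 1 rose and 1, CKM, fell. Their sum was 5234 to 6530 on the ND and 21585 to 22152 on the HD arrays, most of it from ACTA2, smooth muscle actin, with 4418 and 5291 against 20656 and 21380. The part of muscle markers in the values of the MEF2 targets was not tested.

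Genes with long transcripts, whose signal can depend on RNA quality, leaned higher in HD cells. Of 45, 13 rose and 0 fell (4 were lower at an unadjusted p under 0.05 from limma), where 6.67% of all genes rose and 7.97% fell. Their median log2 fold change was 0.47, against -0.05 over all genes. HDAC9, HDAC4, MEF2C and MEF2A span the longest stretches of chromosome among the 10 genes. Such a span is not the length of a transcript, which was not measured, and the part of RNA quality in their values was not tested.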

How the data were processed

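The authors labelled RNA with Cy5, hybridised it to whole-genome oligonucleotide arrays, and took and normalized the spot intensities, per the methods with centring at the 75th percentile. The deposited values are normalized intensity values on a linear scale with a lowest value of 50, and they share their median rather than that percentile. How background was corrected is not known. In the study's slide list the sample name is shared within a group, while the array labels are numbered, and 2 arrays per group limit the precision.

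HD and ND were compared on their log2 with limma 3.58.1 (R 4.3.3; lmFit, eBayes, 28264 probes, no replicate block), with Benjamini-Hochberg adjustment over the whole table. Prior and residual degrees of freedom came to 0.543 and 2. A fold against a group at 50 on both arrays is a lower bound, from mean log2 values. The fit was tested on simulated data with 100 changed probes of each size. At an unadjusted p under 0.05 from limma it found 82 of 100 with a log2 change of 1 and 97 of 100 with 2. Of the unchanged probes 7.25% also met this limit, above its nominal rate. At an adjusted p under 0.05 it found 0 changed probes of either size. Changed probes were a far smaller share of the simulated table than the 13.8% that passed with the deposited values. An adjusted p depends on that share, so nothing is read from this 0. The simulation also took the observed spread of each probe as its true spread.

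All member probes were named. Of each partner list, at most 3 genes per direction that passed without overlap, or else the gene with the smallest adjusted p, were named, and HDAC8, further probes and genes at the lowest value were added after their values were seen. Members and lists were chosen with earlier results of these data known. Symbols came from the platform annotation, positions and promoters from RefSeq (GRCh38.p14). Of 101 listed partner genes, 92 had a named probe. Alternatives were other scalings, 50 added before log2, omission of dim probes, other variance models, a replicate block, omission of each array, and, for the count of partner genes, the mean of all probes of a gene.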

Additional observations from a re-analysis of the deposited data

How the results depend on the processing

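At an adjusted p under 0.05, 5 of the 17 probes and 14 of the 92 partner genes were counted with the deposited values. After cyclic loess normalization these counts were 9 and 38, after 75th percentile scaling 10 and 38, without probes at the lowest value on all arrays 10 and 32, with only probes above it on all arrays 10 and 40, and with robust eBayes 2 and 3. After quantile normalization 26 partner genes were counted. The share of all probes moved with them, from 13.8% to 31.5%, 33.5%, 34.5%, 47.0% and 2.00%, and to 21.4% after quantile normalization. With the mean of all probes of a gene 17 partner genes were counted. With the replicate number as a block both counts were 0, with 8 and 25 at an unadjusted p under 0.05, and no probe of the table had an adjusted p under 0.142. The deviations of same-numbered arrays correlated at -0.32 over all probes, so the numbers do not pair the arrays, and a crossed block, chosen after seeing the data, also gave 0 and 0 (9 and 39 at an unadjusted p under 0.05). Without moderation both counts were 0 (8 and 29). With an array left out they were 0 to 0 and 0 to 0, where the lone array of a group is assumed to vary like the other group. By the study's criteria the members counted were 4 to 6 under every setting but without ND replicate 1, and 3 to 5 with an array left out. Of all probes called by the study's criteria 49.4% were higher, 64.1% after quantile and 61.4% after cyclic loess normalization. None of the 17 probes that was counted by either criterion changed sign under the 15 alternatives. Only the second probe of HDAC7 and both probes of MEF2D did, each under 1 alternative.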

Other observations

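Some partner genes whose brightest probe did not pass had values that stood apart between the groups, and they were picked after their values were seen. KLF2, a transcription factor that MEF2 factors induce in endothelium, read 4633 and 5733 on the ND and 2939 and 2660 on the HD arrays (adjusted p = 0.0701 from limma). The brightest probe of NR4A2 read 1560 and 1916 against 862 and 850 (adjusted p = 0.0523 from limma), and its dimmer probe fell from 1695 and 1781 to 295 and 263 (adjusted p = 0.0256 from limma). The brightest probe of MARK3, a kinase of class IIa enzymes, read 5029 and 6492 against 16175 and 14641 (adjusted p = 0.0501 from limma), and its dimmer probe rose from 576 and 680 to 1628 and 1454 (adjusted p = 0.0430 from limma). The probes of SAP30L, the paralogue of SAP30, differed in sign. The brighter read 5862 and 6019 against 3014 and 2399 (adjusted p = 0.0516 from limma) and the dimmer 116 and 138 against 157 and 166 (adjusted p = 0.177 from limma).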
